A study of Homo sapiens with 11 samples.

Results

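The 10 genes described here are feedback and output genes of the ERK pathway: the phosphatase genes DUSP4, DUSP5 and DUSP6, the inhibitor genes SPRY2, SPRY4, SPRED1 and SPRED2, and the transcription factor genes ETV4, ETV5 and EGR1. They were chosen by symbol, with no threshold on their values, from the 61464 rows of a table of read counts. This choice, and that of the gene lists below, was made with earlier results of these data known. All 10 had a row and enough counts to be tested, among 17963 tested genes. The counts came from poly-T selected RNA of HCT116, an established line of human colon cancer epithelium labelled as carrying a ras mutation. Treatment lasted 48 h, with the solvent DMSO (3 libraries), with the Ganoderma triterpenoid extract GTEA1 (4 libraries) or with another such extract, GTEA7 (4 libraries). Ganoderma is a genus of bracket fungi, and the extracts are known only by these code names. The labels give no dose, so the extracts were compared as labelled. The labels place all 11 libraries in batch 1 and do not say whether replicates were separate cultures, so p-values measure only the spread between these libraries.

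ERK is the last kinase of a cascade that runs from receptors through RAS, RAF and MEK. Active ERK switches on early genes such as EGR1 and the ETS family factors ETV4 and ETV5, and also switches on its own brakes. DUSP4, DUSP5 and DUSP6 remove the phosphates that activate ERK, Sprouty and Spred proteins act upstream on RAS and RAF, and in cells with mutant RAS this feedback is a familiar readout of how active the pathway is. RNA levels of these genes are not a measure of ERK phosphorylation, which was not measured here.

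The promoters of EGR1, DUSP6 and SPRY4, from the RefSeq table (GRCh38.p14), are shown because these genes were higher than DMSO with GTEA1 and lower with GTEA7. Promoters of 6 of the 10 genes were searched, and those of DUSP4, DUSP5, ETV4 and ETV5 were not. Each line gives the 250 bases before the annotated start, in the direction of the gene. Capitals mark the matches to any of 5 motifs that were searched on both strands: AP-1 (TGANTCA), CRE (TGACGTCA), an ETS site (CCGGAAGT), an EGR site (GCGTGGGCG) and the CArG box, the site bound by the serum response factor SRF. No match of one motif overlapped another.
EGR1 chr5:138465229-138465478 (plus strand): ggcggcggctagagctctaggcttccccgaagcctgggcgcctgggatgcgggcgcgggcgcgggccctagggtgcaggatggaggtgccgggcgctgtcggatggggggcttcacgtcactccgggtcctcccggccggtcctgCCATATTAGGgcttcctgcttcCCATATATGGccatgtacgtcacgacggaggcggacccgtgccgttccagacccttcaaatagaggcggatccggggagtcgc
DUSP6 chr12:89352502-89352751 (minus strand): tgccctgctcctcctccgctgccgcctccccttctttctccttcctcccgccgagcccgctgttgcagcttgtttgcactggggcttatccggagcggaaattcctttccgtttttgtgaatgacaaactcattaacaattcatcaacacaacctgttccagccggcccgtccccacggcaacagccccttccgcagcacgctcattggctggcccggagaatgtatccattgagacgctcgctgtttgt
SPRY4 chr5:142324248-142324497 (minus strand): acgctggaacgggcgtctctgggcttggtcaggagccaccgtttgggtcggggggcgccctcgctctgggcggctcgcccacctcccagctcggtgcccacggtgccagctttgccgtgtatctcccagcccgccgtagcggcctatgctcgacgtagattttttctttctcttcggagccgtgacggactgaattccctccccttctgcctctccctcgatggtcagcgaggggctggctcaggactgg
The EGR1 window held 2 CArG boxes, CCATATTAGG from 105 to 96 bases before the start and CCATATATGG from 83 to 74 bases before it. Of 35116 promoter windows of the same length, 1.16% held a CArG box, 6.57% the AP-1 letters, 1.65% the CRE letters, 3.42% the ETS letters and 0.72% the EGR letters. The letters of these motifs were not found in the windows of DUSP6 and SPRY4, nor in those of SPRED1, SPRED2 and SPRY2. A match is a description of the sequence only.

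The DMSO libraries held 13866350 to 17431515 counts each, the GTEA1 libraries 13742326 to 16433111 and the GTEA7 libraries 14955685 to 19304211. Levels are given below as CPM, the counts scaled to a common library size with TMM factors, as mean ± SD (n = 3 for DMSO, n = 4 for each extract). A value after ± for a log2 fold change is its standard error. Genes were tested with edgeR's quasi-likelihood test over all genes, with p-values adjusted after Benjamini and Hochberg and 0.05 as the threshold. With GTEA1, 71.8% of all tested genes passed against DMSO, and with GTEA7 22.5%. Scaled by library size alone, all genes together had a median of -0.167 on the log2 scale with GTEA1 and -0.06 with GTEA7, and the share of passing genes that were higher went from 49.6% to 37.1% with GTEA1 and from 53.5% to 29.8% with GTEA7. Of 8 epithelial markers, 7 had counts in every group and CDX1 was at 0 throughout. VIL1 had 28 counts in all. The summed level of these markers was 2232 to 2381 CPM in DMSO, 2717 to 2847 in GTEA1 and 2228 to 2324 in GTEA7. They did not move together: of the 6 tested, 3 rose with GTEA1 (KRT19, EPCAM and CDH1) and 3 fell (KRT8, KRT18 and CDX2). Of 10 markers of blood, vessel, stromal and liver cells, CD3E was at 0 in every library. Their sum was 53.2 to 56 CPM in DMSO, 40.3 to 45.3 in GTEA1 and 37.1 to 47.6 in GTEA7, most of it COL1A1. Genes of the mitochondrial genome took up 13.3% to 15.1% of counts in DMSO, 12.5% to 13.6% in GTEA1 and 15% to 15.3% in GTEA7. The part of these differences in the results below was not tested.

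With GTEA1, 6 of the 10 genes rose (DUSP4, DUSP5, DUSP6, SPRY4, ETV5 and EGR1), 3 fell (SPRED1, SPRED2 and ETV4) and SPRY2 did not pass. This stands against 35.6% of all tested genes that rose and 36.2% that fell, so a count of 9 changed genes is read against a background of 71.8%. The median log2 fold change of the 10 was 0.51, against -0.01 over all tested genes. With GTEA7, 3 rose (DUSP4, DUSP5 and ETV5) and 4 fell (DUSP6, SPRY4, SPRED2 and EGR1), where 12% of all tested genes rose and 10.4% fell. Their median with GTEA7 was -0.03, against -0.01 over all tested genes. Only DUSP5 and EGR1 passed with a change of at least 2-fold with GTEA1 (21% of all tested genes did), and 0 did with GTEA7 (0.579%). The GTEA1 and DMSO libraries did not overlap for 8 of the 10 genes, where 68.7% of all tested genes had no overlap, and the GTEA7 and DMSO libraries for 7 of the 10, where 30.5% had none. DUSP6, SPRY4 and EGR1, 3 of the 10, were higher with GTEA1 and lower with GTEA7, as were 408 of the 17963 tested genes (2.27%). Both comparisons use the same 3 DMSO libraries, so this count is a description and was not tested. In bulk RNA, fewer cells of a kind and less RNA per cell cannot be told apart.

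**Figure D1:**
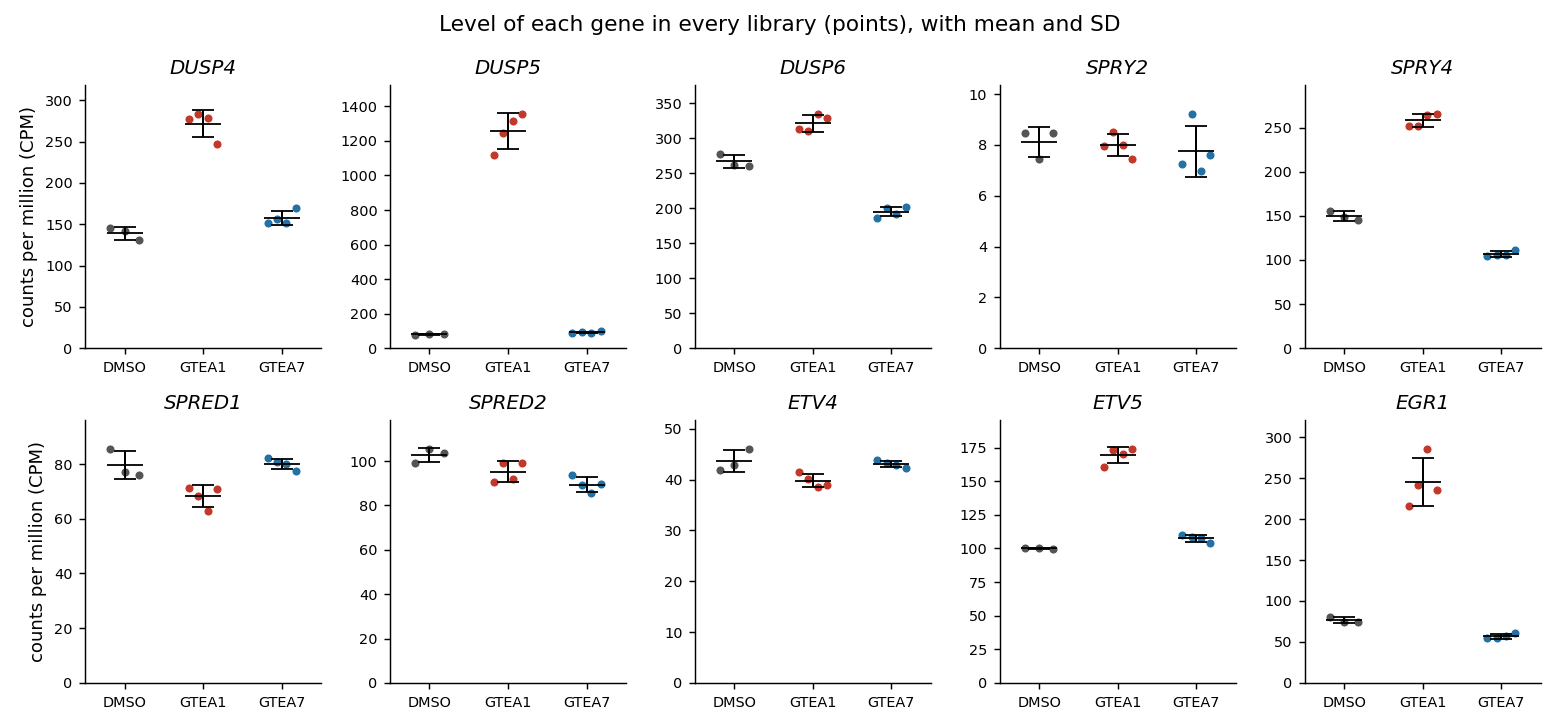
Level of each of the 10 genes in CPM (vertical axis, from 0) in every DMSO, GTEA1 and GTEA7 library (points), with the group mean and SD as black bars. DUSP5 stands at 1116 to 1355 CPM in the GTEA1 libraries and under 100 in all others, while SPRY2 overlaps across all groups.

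Among the phosphatases, DUSP5 differed most with GTEA1 and DUSP6 with GTEA7. DUSP5 (ENSG00000138166) encodes a nuclear phosphatase that acts on ERK. It was at 78.3, 79.9 and 80.9 CPM in DMSO, at 1116, 1247, 1315 and 1355 CPM in GTEA1 and at 88.7, 91, 88.7 and 96.6 CPM in GTEA7. The GTEA1 libraries lay far above all others, and the lowest GTEA7 library lay above the highest DMSO library by less than 10 CPM. With GTEA1 it rose 15.8-fold (log2 fold change 3.98 ± 0.06, adjusted p = 2.6e-27), and 0.44% of all tested genes changed at least as much in either direction. With GTEA7 it rose 1.14-fold (0.19 ± 0.06, adjusted p = 0.013), and 35.3% of all tested genes changed at least as much. The GTEA7 call was lost without DMSO replicate 1 (adjusted p = 0.076) and with library size as the only scaling (adjusted p = 0.052).

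DUSP6 (ENSG00000139318) encodes a cytoplasmic phosphatase with a strong preference for ERK. Its level was 277, 262 and 261 CPM in DMSO, 313, 310, 334 and 328 CPM in GTEA1 and 187, 199, 192 and 201 CPM in GTEA7. The 3 groups did not overlap: every GTEA1 library was above, and every GTEA7 library below, every DMSO library. It rose by a log2 fold change of 0.27 ± 0.04 with GTEA1 (adjusted p = 4.4e-09), or 0.11 with library size as the only scaling (adjusted p = 0.0053). With GTEA7 it fell, by 0.45 ± 0.04 on the log2 scale (adjusted p = 2.1e-14), and 9.17% of all tested genes changed at least as much. The annotated antisense gene AC024909.2 overlaps 1875 of the 4632 exonic bases of DUSP6. It was at 1.09 ± 0.18 CPM in DMSO, 0.56 ± 0.11 in GTEA1 and 0.76 ± 0.22 in GTEA7. Strandedness of the counting is not given, and how reads from the shared bases were counted was not tested.

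DUSP4 (ENSG00000120875) encodes another nuclear phosphatase, which acts on ERK and on the stress kinase JNK. It was at 145, 141 and 130 CPM in DMSO, at 277, 283, 278 and 248 CPM in GTEA1 and at 151, 157, 152 and 169 CPM in GTEA7. Both extracts lay above DMSO without overlap, GTEA7 narrowly. The rise was 1.95-fold with GTEA1 (0.97 ± 0.05, adjusted p = 7e-19) and 1.13-fold with GTEA7 (0.18 ± 0.05, adjusted p = 0.0043). Of all tested genes, 22.3% changed at least as much with GTEA1 and 39% with GTEA7.

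Because the 3 phosphatase genes moved by such unequal amounts, their order changed. Levels of different genes were compared as CPM per kilobase of exon, with lengths from GENCODE v29. The length of DUSP6 included the bases it shares with AC024909.2. In DMSO, DUSP6 had the highest level of the 10 genes (57.6 ± 2 CPM per kilobase), followed by DUSP5 (30.5 ± 0.5). In GTEA1, DUSP5 was first (481 ± 40.1), then EGR1 (78 ± 9.36) and DUSP6 (69.4 ± 2.56), which overlapped in their ranges. In GTEA7, DUSP6 (42.1 ± 1.46) and DUSP5 (34.9 ± 1.43) were again first and second, without overlap. Of the summed per-kilobase level of all 10 MAP kinase phosphatase genes, DUSP5 made up 25% ± 0.65 in DMSO, 78.2% ± 1.27 in GTEA1 and 31% ± 0.39 in GTEA7 (SD over libraries). DUSP6 made up 47.2% ± 1.12, 11.3% ± 0.56 and 37.4% ± 0.51 of it. The sum itself was 122 ± 1.29 CPM per kilobase in DMSO, 615 ± 42.2 in GTEA1 and 112 ± 4.42 in GTEA7. These shares are descriptions and were not tested.

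**Figure D2:**
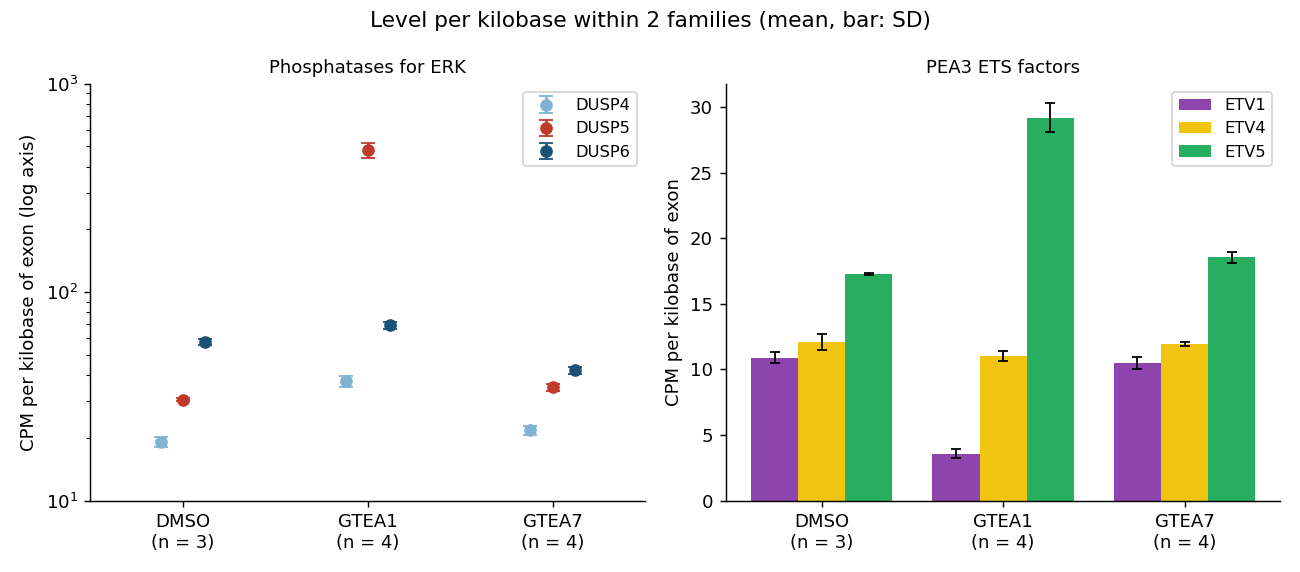
Mean level in CPM per kilobase of exon, with SD, of DUSP4, DUSP5 and DUSP6 (left, log axis) and of the PEA3 factors ETV1, ETV4 and ETV5 (right, axis from 0) in DMSO (n = 3), GTEA1 and GTEA7 (n = 4 each). DUSP5 stands below DUSP6 in DMSO and GTEA7 and at 481 CPM per kilobase in GTEA1, and ETV1 and ETV5 stand apart in GTEA1.

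The other 7 MAP kinase phosphatases, taken as a list, were described in the same way. Of these, 5 rose with GTEA1 and 0 fell, also at an unadjusted p under 0.05. Among all tested genes, 35.6% rose and 36.2% fell with GTEA1, 71.8% in all. The median of the 7 with GTEA1 was 0.61 on the log2 scale against -0.01 over all tested genes. DUSP1 (1.85 ± 0.1), an early-response phosphatase, DUSP8 (1.37 ± 0.16), DUSP10 (0.65 ± 0.13), DUSP16 (0.61 ± 0.11) and DUSP9 (0.43 ± 0.1) rose. DUSP2 was at 0.28 ± 0.16 and DUSP7 at 0.08 ± 0.07. With GTEA7, 0 of the 7 passed edgeR's test, where 22.5% of all tested genes did, and 0 passed with DESeq2 or limma-voom. At an unadjusted p under 0.05, 2 were lower (DUSP1 at -0.27 ± 0.12 and DUSP7 at -0.15 ± 0.07).

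The inhibitors upstream of ERK did not move together. SPRY4 (ENSG00000187678), a Sprouty protein that dampens RAS signalling, was at 156, 148 and 145 CPM in DMSO, at 252, 252, 264 and 265 CPM in GTEA1 and at 105, 106, 105 and 111 CPM in GTEA7. The groups were fully separated, with DMSO between the extracts. SPRY4 rose 1.72-fold with GTEA1 (0.79 ± 0.04, adjusted p = 4.6e-25), and 29.9% of all tested genes changed at least as much. With GTEA7 SPRY4 fell by 0.49 ± 0.04 on the log2 scale (adjusted p = 4.2e-15), a change that 7.65% of all tested genes equalled or exceeded. The antisense gene SPRY4-AS1 shares 0 exonic bases with it. SPRY2 (ENSG00000136158), its paralog, was low in every group, between 6.96 and 9.21 CPM over the 11 libraries. Its log2 fold change was -0.02 ± 0.11 with GTEA1 (adjusted p = 0.85) and -0.06 ± 0.11 with GTEA7 (adjusted p = 0.77). These standard errors are the widest of the 10 genes, and no change was detectable at this depth.

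Spred proteins bind neurofibromin, the RAS-inactivating protein encoded by NF1, and bring it to the membrane. SPRED1 (ENSG00000166068) was at 85.5, 77.2 and 76 CPM in DMSO, at 71.1, 68.3, 62.8 and 70.9 CPM in GTEA1 and at 82.1, 80.9, 80 and 77.6 CPM in GTEA7. Every GTEA1 library was below every DMSO library, and GTEA7 lay within the DMSO range. It fell with GTEA1 by 0.22 ± 0.05 on the log2 scale (adjusted p = 3e-05), or by 0.38 with library size as the only scaling, and was at 0.01 ± 0.04 with GTEA7 (adjusted p = 0.91). SPRED2 (ENSG00000198369) was at 99.1, 105 and 104 CPM in DMSO, at 90.4, 99.3, 91.7 and 99.2 CPM in GTEA1 and at 93.6, 89, 85.6 and 89.5 CPM in GTEA7. The GTEA1 libraries overlapped DMSO, whereas the GTEA7 libraries were all below it. SPRED2 fell with GTEA7 by 0.2 ± 0.04 (adjusted p = 0.00023). With GTEA1 it fell by 0.11 ± 0.04 (adjusted p = 0.017), a call lost without DMSO replicate 2, GTEA1 replicate 1 or GTEA1 replicate 3 (adjusted p = 0.095, 0.055 and 0.075) and with no low-count filter (adjusted p = 0.053). Scaled by library size alone, its value with GTEA1 was -0.27 (adjusted p = 2.3e-07).

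**Figure D3:**
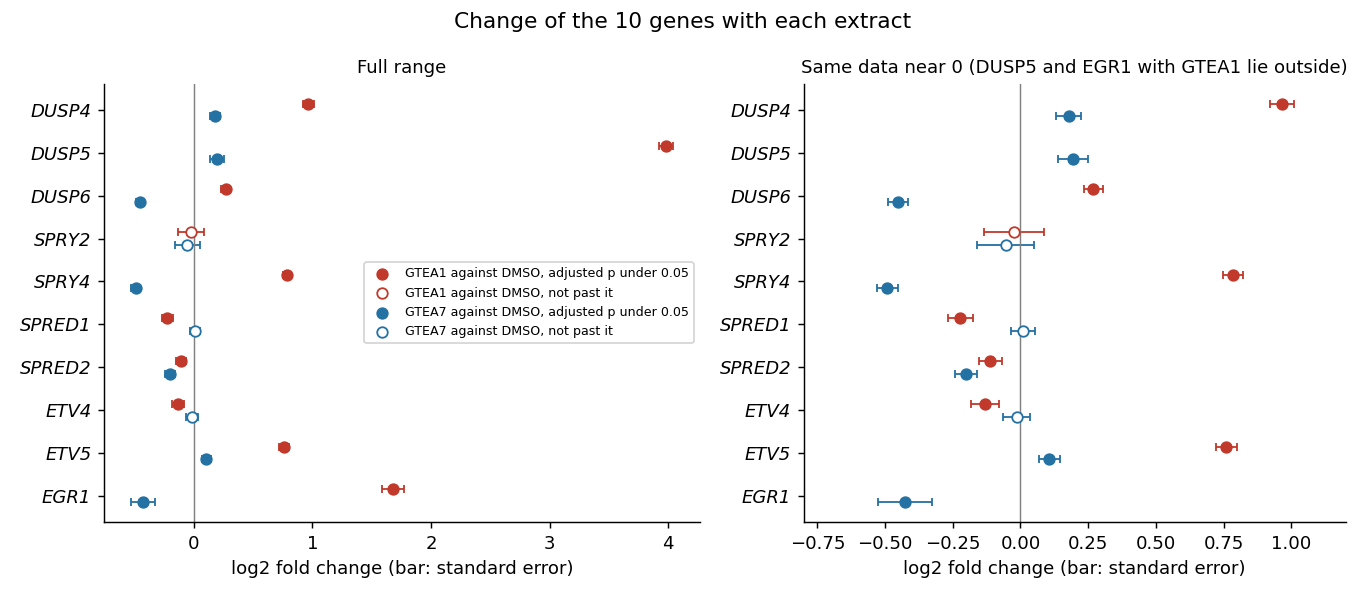
Log2 fold change (horizontal axis, bars are standard errors) of the 10 genes with GTEA1 and with GTEA7 against DMSO, at full range (left) and near 0 (right). Filled points passed at an adjusted p under 0.05: DUSP6, SPRY4 and EGR1 stand right of 0 with GTEA1 and left of 0 with GTEA7.

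The transcription factor genes split as well. EGR1 (ENSG00000120738), whose promoter is shown above with its CArG boxes, encodes a zinc finger factor that is among the first genes switched on after ERK. It was at 80.6, 73.8 and 74.7 CPM in DMSO, at 216, 242, 286 and 236 CPM in GTEA1 and at 54.7, 55.2, 56.7 and 61.3 CPM in GTEA7. The groups were fully separated, and the GTEA1 libraries were spread more widely (SD 29.4 CPM) than the others. EGR1 rose 3.21-fold with GTEA1 (1.68 ± 0.09, adjusted p = 8.4e-08), and 7.87% of all tested genes changed at least as much. With GTEA7 it fell by 0.43 ± 0.1 on the log2 scale (adjusted p = 0.015), and without DMSO replicate 1 the value was -0.38 and did not pass (adjusted p = 0.058).

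ETV5 and ETV4 belong to the PEA3 group of ETS factors, which the repressor CIC holds down until ERK acts on it. ETV5 (ENSG00000244405) was at 101, 100 and 99.7 CPM in DMSO, at 160, 173, 170 and 174 CPM in GTEA1 and at 110, 108, 108 and 104 CPM in GTEA7. Both extracts lay above DMSO without overlap. ETV5 rose 1.69-fold with GTEA1 (0.76 ± 0.04, adjusted p = 1.1e-23). Of all tested genes, 31.1% changed at least as much as ETV5 with GTEA1 and 59.7% with GTEA7. With GTEA7 the rise was 0.11 ± 0.04 (adjusted p = 0.042), and the call was lost when any of DMSO replicates 1, 2 and 3 (adjusted p = 0.077, 0.1 and 0.11) or GTEA7 replicates 1, 2 and 3 (adjusted p = 0.11, 0.095 and 0.062) was left out, under library size alone (0.05, adjusted p = 0.34) and when replicate numbers were blocked (adjusted p = 0.057). The gene DGKG on the same strand shares 164 of 5802 exonic bases with ETV5 and was at 9.44 ± 0.47 CPM in DMSO, 7.19 ± 0.84 in GTEA1 and 12.7 ± 0.75 in GTEA7.

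ETV4 (ENSG00000175832) stayed between 38.6 and 46 CPM in all libraries, with GTEA1 at 41.4, 40, 38.6 and 38.9 CPM and DMSO at 41.8, 42.9 and 46 CPM. Every GTEA1 library was below every DMSO library. It fell with GTEA1 by 0.13 ± 0.05 on the log2 scale (adjusted p = 0.02), a call lost without DMSO replicate 3 or either of GTEA1 replicates 3 and 4 (adjusted p = 0.13, 0.064 and 0.054), under DESeq2 (adjusted p = 0.059) and with no low-count filter (adjusted p = 0.069). With GTEA7 it was at -0.01 ± 0.05 (adjusted p = 0.88). DHX8 on the opposite strand shares 68 of its 3607 exonic bases and was at 82.7 ± 3.87 CPM in DMSO, 71.7 ± 2.79 in GTEA1 and 86 ± 1.71 in GTEA7. Scaled by library size alone, ETV4 was at -0.29 with GTEA1. The third PEA3 factor, ETV1, went from 105 CPM in DMSO to 34.4 with GTEA1 and 101 with GTEA7. It fell with GTEA1 by 1.61 ± 0.05 (adjusted p = 1.3e-30). The summed per-kilobase level of ETV1, ETV4 and ETV5 was 40.2 ± 0.17 in DMSO, 43.8 ± 0.6 in GTEA1 and 41 ± 1.04 in GTEA7. Within it, the share of ETV5 was 42.9% ± 0.38, 66.7% ± 1.69 and 45.3% ± 0.28, and that of ETV1 27.1% ± 1.12, 8.17% ± 0.84 and 25.6% ± 0.54, in the same order of groups. These shares were not tested.

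The direct comparison of the extracts sets GTEA7 against GTEA1 with no DMSO library in the contrast. Here 7 of the 10 genes were lower with GTEA7 and 2 higher, where 36.4% and 36.2% of all tested genes were, 72.7% in all. DUSP5, EGR1 and SPRY4 passed at 2-fold or more, as 19.8% of all tested genes did. The libraries of the extracts did not overlap for 8 of the 10, where 65.3% of all tested genes had no overlap. DUSP5 differed most, at -3.79 ± 0.05 (adjusted p = 3.5e-28), then EGR1 (-2.11 ± 0.09, adjusted p = 7.2e-09) and SPRY4 (-1.28 ± 0.03, adjusted p = 3.3e-35). DUSP4 (-0.79 ± 0.04), DUSP6 (-0.72 ± 0.03) and ETV5 (-0.65 ± 0.03) were lower too, without overlap between the groups. SPRED1 (0.23 ± 0.04, adjusted p = 4.1e-06) and ETV4 (0.12 ± 0.05, adjusted p = 0.024) were higher with GTEA7. The call of ETV4 was lost without GTEA1 replicate 3 or 4 or GTEA7 replicate 1 (adjusted p = 0.07, 0.058 and 0.054) and under DESeq2's test (adjusted p = 0.05), and its value was 0.23 with library size as the only scaling (adjusted p = 4.7e-05). SPRED2 was at -0.09 ± 0.04 (adjusted p = 0.038) and turned to 0.019 with library size as the only scaling (adjusted p = 0.69). Its call was also lost without GTEA1 replicate 2 or 4 (adjusted p = 0.15 and 0.14) or GTEA7 replicate 2, 3 or 4 (adjusted p = 0.077, 0.18 and 0.083). DESeq2's test (adjusted p = 0.08), no low-count filter (adjusted p = 0.094) and a fit of the 2 extracts alone (adjusted p = 0.087) lost it too. SPRY2 was at -0.03 ± 0.1 and did not pass (adjusted p = 0.79).

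The genes whose pattern over the 11 libraries was most like that of each of the 10 were found by the root mean square distance of log2 CPM, each gene centred on its own mean, among 14830 genes of at least 1 CPM. For DUSP5 they included GDF15 (distance 0.14), a stress cytokine, and TRIB3 (0.18), a pseudokinase. EGR1 was nearest to DUSP1 (0.12), JUN (0.13), an AP-1 subunit, and PEAR1 (0.13). DUSP6 was nearest to FCHSD1 (0.055), SLC25A29 (0.065) and TNFRSF25 (0.074), and SPRY4 to ITGB4 (0.067), MBD6 (0.067) and SYTL1 (0.089). For ETV5 the nearest gene was PIP4K2A (0.03), and for DUSP4 it was CLDN4 (0.05). Among the genes that changed little, SPRED2 was nearest to DLG5 (0.03), SPRED1 to WASHC2C (0.04) and SPRY2 to NTAN1 (0.08). None of the 10 had another of the 10 among its 3 nearest genes.

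**Figure D4:**
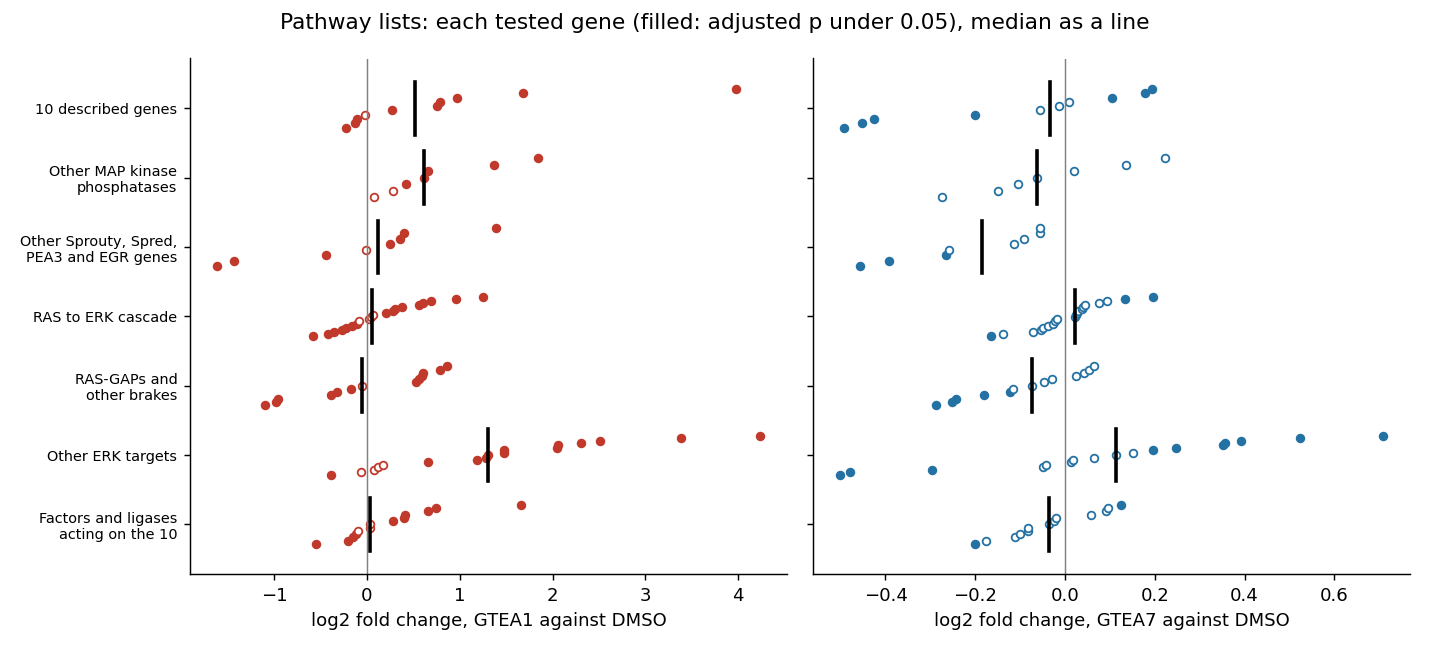
Log2 fold change against DMSO (horizontal axes, which differ in range between the panels) of every tested gene of the 7 lists, with GTEA1 (left) and GTEA7 (right); filled points passed at an adjusted p under 0.05 and black lines are medians. The median of other ERK targets with GTEA1 is 1.31, and the cascade itself lies around 0.05.

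The rest of the pathway was described by lists of genes. Of 8 tested relatives of these genes (Sprouty, Spred, PEA3 and EGR families and the EGR corepressors), 4 rose and 3 fell with GTEA1 (median 0.12). Among all tested genes, 35.6% rose and 36.2% fell with GTEA1, 71.8% in all. EGR2 (1.39 ± 0.15) and NAB2 (0.35 ± 0.04), which restrains EGR proteins, rose with EGR3 (0.39 ± 0.14) and SPRED3 (0.25 ± 0.11). ETV1, SPRY3 (-1.43 ± 0.17) and SPRY1 (-0.44 ± 0.12) fell. With library size as the only scaling or without DMSO replicate 3, 2 rose. With GTEA7, 3 fell and 0 rose by edgeR's test (median -0.19), where 10.4% of all tested genes fell and 12% rose. The genes that fell were NAB2 (-0.27 ± 0.04), SPRY1 (-0.39 ± 0.11) and SPRY3 (-0.46 ± 0.14). At an unadjusted p under 0.05, 5 were lower and 0 higher. Without DMSO replicate 2 the count that fell was 1.

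Of 20 genes of the cascade from RAS to ERK, 9 rose, 7 fell and 4 did not pass with GTEA1, with a median of 0.05. Among all tested genes, 35.6% rose and 36.2% fell with GTEA1, 71.8% in all. The adaptor gene SHC1 rose by 1.25 ± 0.04, the scaffold KSR1 by 0.96 ± 0.07, the MEK gene MAP2K2 by 0.69 ± 0.04 and BRAF by 0.6 ± 0.05. Among those that fell was HRAS, at -0.58 ± 0.08. With GTEA7, 2 rose and 1 fell, where 12% of all tested genes rose and 10.4% fell. They were SHC1 (0.2 ± 0.04), the phosphatase gene PTPN11 (0.13 ± 0.03) and RPS6KA1 (-0.17 ± 0.05). The call of RPS6KA1 was lost without DMSO replicate 3 or GTEA7 replicate 2. With library size only, 11 of the 20 fell with GTEA1.

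Of 13 tested RAS-GAPs and other brakes, 6 rose and 6 fell with GTEA1 (median -0.06), where 35.6% and 36.2% of all tested genes did, 71.8% in all. NF1 rose by 0.86 ± 0.04 and RASA2 by 0.79 ± 0.05, while PEBP1 (-0.96 ± 0.04), which binds RAF, and DAB2IP (-0.98 ± 0.05) fell. With GTEA7, where 10.4% of all tested genes fell and 12% rose, 5 fell and 0 rose by edgeR's test. At an unadjusted p under 0.05, 6 were lower and 0 higher. Those that fell by edgeR's test included NF1 (-0.12 ± 0.05), RASA2 (-0.18 ± 0.06), DAB2IP (-0.24 ± 0.05) and LZTR1 (-0.29 ± 0.1). The count that fell was 3 with DESeq2 size factors or a replicate block and 2 with no low-count filter or DESeq2's test. It was 1 without DMSO replicate 1 or GTEA7 replicate 3 and 2 without DMSO replicate 2 or GTEA7 replicate 4.

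Of 17 tested other ERK targets, 12 rose and 1, the cyclin gene CCND1 (-0.39 ± 0.03), fell with GTEA1, with a median of 1.31 against -0.01 over all tested genes. Among all tested genes, 35.6% rose and 36.2% fell with GTEA1. The 4 targets that did not pass with GTEA1 were FOS (0.17 ± 0.1), IER5 (0.11 ± 0.06), EPHA4 (0.08 ± 0.11) and MYC (-0.06 ± 0.04). FOSL1 rose by 3.39 ± 0.05, EPHA2 by 2.06 ± 0.04 and the ligand gene AREG by 2.05 ± 0.04. With GTEA7, 7 rose and 3 fell (median 0.11), where 12% of all tested genes rose and 10.4% fell. Those that rose included EREG (0.71 ± 0.04), LIF (0.52 ± 0.05), AREG (0.39 ± 0.04), MYC (0.36 ± 0.03), FOSL1 (0.35 ± 0.07) and PHLDA1 (0.2 ± 0.03). Those that fell were EPHA2 (-0.5 ± 0.04), JUNB (-0.48 ± 0.06) and IER5 (-0.3 ± 0.06).

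Of 13 factors and ubiquitin ligases that act on the 10 genes or their proteins, 6 rose and 4 fell with GTEA1 (median 0.03). The shares of all tested genes that rose and fell with GTEA1 were 35.6% and 36.2%, 71.8% in all. ETS1 rose by 1.67 ± 0.07, COP1, part of a ligase that marks ETV proteins for breakdown, by 0.74 ± 0.06, ELK3 by 0.66 ± 0.04 and SRF by 0.4 ± 0.06. MRTFB (-0.55 ± 0.04), CIC (-0.2 ± 0.05), ATXN1L (-0.15 ± 0.05), a partner of CIC, and ETS2 (-0.12 ± 0.04) fell. With GTEA7, ELK3 rose (0.12 ± 0.04) and MRTFA fell (-0.2 ± 0.06), where 12% of all tested genes rose and 10.4% fell. The call of ELK3 was lost without DMSO replicate 2 or 3 or GTEA7 replicate 2 or 4, and that of MRTFA without DMSO replicate 3 or GTEA7 replicate 3.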

How the data were processed

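The authors deposited raw counts of reads for each gene, in 11 columns, 1 per library, all used here. Per the submitters' processing notes, the tools included HTSeq 0.5.4, STAR, DESeq 1.10.1, GATK, SAMtools 0.1.18 and Picard, with no role given. Build, annotation and strandedness of the counting: not given in the sources used here. Symbols came from a table of gene names (60370 of 61464 rows), and where IDs shared a symbol the one with most counts was taken. Rows with IDs outside Ensembl (840) stayed in the table. Groups came from the sample titles. The 10 genes and the lists were chosen with earlier results of these data known.

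Low-count genes were removed with filterByExpr of edgeR 4.0.16 (R 4.3.3), libraries were scaled with TMM, and a quasi-likelihood model (robust) was fitted to all 11 libraries. Alternatives were DESeq2 1.42.0 size factors and Wald test, limma-voom (limma 3.58.1), library size only, no filter, at least 1 CPM in at least 3 libraries, only the groups compared, a replicate block and leaving out each library. The method was tested on simulated data in which few genes changed, as many up as down. That test does not cover a change as broad as the one with GTEA1. The 10 genes are all named. From each list up to 4 genes with the smallest adjusted p, and all members of counts of 5 or fewer, are named (some are not reported here), by a rule set with those earlier results known. HRAS, SRF, MYC, EREG, LIF and PHLDA1 were named after their values were seen. Replicate pairs differed by more than sampling noise (chi-square per gene 1.39 to 4.09, where sampling noise alone gives about 1).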

Additional observations from a re-analysis of the deposited data

Results flagged for a closer look

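Within groups of 4 libraries, a library was singled out where its gap to the nearest other took up most of the group's range (Dixon's test at 95%). Of 20 such groups of the 10 genes, 2 were singled out, and chance alone singles out about 1 in 20. DUSP4 was at 248 CPM in GTEA1 replicate 4, below the other 3 GTEA1 libraries at 277 to 283 CPM and still above every DMSO library. SPRY4 was at 111 CPM in GTEA7 replicate 4, above the other 3 GTEA7 libraries at 105 to 106 CPM and still below every DMSO library.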

How the results depend on the processing

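Over 15 alternatives each, the rises of DUSP4, DUSP5, DUSP6, SPRY4, ETV5 and EGR1 and the fall of SPRED1 with GTEA1 kept direction and call, as did the rise of DUSP4 and the falls of DUSP6, SPRY4 and SPRED2 with GTEA7. The number of the 10 genes that fell with GTEA1 went from 3 to 1 with no low-count filter, and ranged from 1 to 3 when 1 library was left out. The number that rose with GTEA7 went from 3 to 1 with library size only, and ranged from 1 to 3 when 1 library was left out. For GTEA7 against GTEA1, the number higher went from 2 to 1 with DESeq2's test and ranged from 1 to 2 when 1 library was left out. The number lower was 6 in place of 7 with library size only, no low-count filter, DESeq2's test or only the 2 groups, and 6 to 7 when 1 library was left out. SPRED2 there went from -0.09 to 0.019 with library size only. The cause of these changes was not tested. Deviations of libraries that share a replicate number correlated between -0.05 and 0.03 across groups, and 1 of 11 libraries correlated best with its own number. With the replicate number as a block, 12725 genes passed with GTEA1 (12895 without), 4087 with GTEA7 (4036 without) and 13016 for GTEA7 against GTEA1 (13056 without), and of the 10 genes 2 rose with GTEA7. SPRY2, with 1403 counts in all, was the least precisely measured of the 10.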
